A study of Mus musculus with 48 samples.

Results

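The cAMP and DARPP-32 signalling genes of the striatum were taken as the 9 rows of the gene table with the symbols Ppp1r1b, Adcy5, Gnal, Gng7, Pde10a, Pde1b, Rgs9, Ptpn5 and Arpp21, out of 23420 rows, and all 9 were found and passed the filter on low counts. The mice came from a 112kb congenic line (8 mice, 4 males and 4 females) and from wild-type C57BL/6J littermates (8 mice, 4 males and 4 females), all aged about 50 days. The labels give no treatment and name the congenic segment by its size only. As background on this line, the segment is of DBA/2J origin, lies on chromosome 11 and carries Hnrnph1, and Ppp1r1b and Rgs9 lie elsewhere on the same chromosome. For each mouse, 3 mm punches of the striatum from both hemispheres were pooled, and poly(A) RNA was sequenced on 3 lanes. Counts were summed over lanes, so n counts mice, and the 16 mice held 73.1 to 82.0 M gene counts each (M for the mega prefix). Mice are called by the sample names in the labels, and litters are not given, and punches from a bulk tissue cannot separate fewer cells of a type from less RNA per cell.

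As background, the medium spiny neurons of the striatum read dopamine through this pathway. D1 dopamine receptors and adenosine receptors encoded by Adora2a act on the olfactory-type stimulatory G protein alpha subunit (Gnal), which works with the gamma subunit Gng7 and switches on adenylyl cyclase 5 (Adcy5). The cAMP formed activates protein kinase A, which phosphorylates DARPP-32 (Ppp1r1b) and turns it into an inhibitor of protein phosphatase 1. The phosphodiesterases Pde10a and Pde1b break cyclic nucleotides down, Rgs9 speeds the switch-off of inhibitory G proteins, Ptpn5 (the phosphatase STEP) acts on MAP kinases and glutamate receptors, and Arpp21 is another small phosphoprotein substrate of protein kinase A in these neurons.

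Promoters of 5 of these genes are given first, with a little used start beside the more used one for Gng7 and Pde10a, because the exon data below separate used from little used starts of several of these genes. RefSeq promoter sequences (GRCm38.p6, 250 bases upstream of a start) were at hand for 7 of the 9 genes, with 20 starts in all (those of Arpp21 and Ptpn5 are not shown), and each sequence matched NCBIM37, the build of the exon bins, exactly once. Shown are 100 bases that end ahead of the start and of any annotated exon, 5′ to 3′ on the gene's strand, with the GC box GGGCGG of either orientation in capitals.
Adcy5, NCBIM37 chr16:35154850-35154949 on the plus strand: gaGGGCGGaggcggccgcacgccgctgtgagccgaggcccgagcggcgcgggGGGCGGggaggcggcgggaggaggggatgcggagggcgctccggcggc
Pde1b, upstream start, NCBIM37 chr15:103333365-103333464 on the plus strand: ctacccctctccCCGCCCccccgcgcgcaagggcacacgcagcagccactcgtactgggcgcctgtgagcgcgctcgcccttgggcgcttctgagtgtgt
Rgs9, NCBIM37 chr11:109159496-109159595 on the minus strand: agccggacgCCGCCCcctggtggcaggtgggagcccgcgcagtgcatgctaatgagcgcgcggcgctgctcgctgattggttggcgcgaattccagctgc
Gng7, upstream start, NCBIM37 chr10:80477691-80477790 on the minus strand: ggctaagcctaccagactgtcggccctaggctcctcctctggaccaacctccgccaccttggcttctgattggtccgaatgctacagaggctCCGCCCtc
Gng7, downstream start, NCBIM37 chr10:80464124-80464223 on the minus strand: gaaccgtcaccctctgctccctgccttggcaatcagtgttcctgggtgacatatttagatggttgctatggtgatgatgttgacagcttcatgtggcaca
Pde10a, upstream RefSeq start, NCBIM37 chr17:8994458-8994557 on the plus strand: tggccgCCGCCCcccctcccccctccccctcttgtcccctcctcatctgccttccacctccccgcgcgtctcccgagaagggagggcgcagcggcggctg
Pde10a, downstream RefSeq start, NCBIM37 chr17:9042750-9042849 on the plus strand: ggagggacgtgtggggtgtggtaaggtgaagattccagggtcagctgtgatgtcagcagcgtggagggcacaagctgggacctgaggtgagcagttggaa

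A GC box lay within 250 bases of 6 of the 20 starts, against 32.7% of 32851 RefSeq promoters. Those 6 starts were the single Adcy5 and Rgs9 starts and, of the genes with more than 1 start, the start of Gng7, Pde10a and Ptpn5 whose exon bin held the most counts per base and the most upstream start of Pde1b, the only one of that gene with an exon bin at it. None of the 9 Arpp21 starts and none of the other starts of those 4 genes had the motif. For Gng7 the bins compared differed mainly in length, 12 bp with 45.8 counts and 133 bp with 38.9 counts on average. The Pde10a start with a GC box opened onto an exon stretch with 7.12 counts per base, and the other Pde10a start onto one with 0.0103 counts per base. No start had the full cAMP response element TGACGTCA, which 1.5% of all promoters held, and 3 of 20 held its 5-letter part TGACG on either strand, against 17.8% of all promoters. The TATAAA motif was found at 1 member start, that of Rgs9 (5.0% of the starts, against 12.4% of all promoters). These motif matches are a description of the letters, and their part in transcription was not tested.

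All 9 genes stood among the most sequenced transcripts of the striatum. By CPM, a gene's count scaled to a common library total, which grows with transcript length, Pde10a stood at rank 10 of 23420 rows with 2368 ± 174 CPM (SD, n = 16), Arpp21 at rank 17 with 1969 ± 122, Ppp1r1b at rank 18 with 1965 ± 195, Pde1b at rank 26 with 1789 ± 115, Adcy5 at rank 37 with 1667 ± 90.1 and Gng7 at rank 40 with 1604 ± 112. Rgs9 stood at rank 55 with 1321 ± 110 CPM, Gnal at rank 87 with 927 ± 41.6 and Ptpn5 at rank 88 with 927 ± 79.5. The median gene tested had 18.6 CPM. The tissue label was checked against markers: 20 other markers of striatal projection neurons summed to 9147 to 10691 CPM over the mice, against 220 to 522 CPM for 11 markers of cortical excitatory neurons.

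The genes lie on 8 chromosomes of NCBIM37. Ppp1r1b spans chr11:98209718-98219110 on the plus strand and Rgs9 chr11:109086669-109159443 on the minus strand, Adcy5 chr16:35154963-35305823, Pde10a chr17:8718237-9179513, Pde1b chr15:103333465-103360483 and Gnal chr18:67247990-67386446 the plus strand, and Gng7 chr10:80411369-80477690, Ptpn5 chr7:54333168-54389054 and Arpp21 chr9:111967595-112138442 the minus strand.

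Per length the order was another one. In CPM per kilobase of annotated exon (RPKM), Ppp1r1b led with 671 ± 66.7 and stood at rank 17 of 21259 genes with a known length. Gng7 followed with 424 ± 29.6 RPKM, Pde1b with 419 ± 26.9, Adcy5 with 238 ± 12.9, Rgs9 with 207 ± 17.3, Pde10a with 188 ± 13.8, Ptpn5 with 160 ± 13.7, Arpp21 with 119 ± 7.38 and Gnal with 117 ± 5.25 (SD, n = 16 each). Gng7 and Pde1b could not be ordered, since Gng7 was higher in 8 of 16 mice, and the same held for Arpp21 and Gnal. The other neighbours kept their order in 15 or 16 of 16 mice. The RPKM of Arpp21 is lowered by its annotation, whose 16488 bp of exon include long forms that were little covered here. Little covered stretches also count in the lengths of Pde10a (2894 bp at 0.27 counts per base) and Gnal (2083 bp at 0.23). For Rgs9 such a stretch was 2698 bp at 3.04 counts per base. The last exon bin of Gnal, 4224 bp at 12.8 counts per base, overlaps the opposite-strand gene Mppe1. The order per length thus depends on the annotated lengths, and an order over covered exon alone was not computed.

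Within their families the 9 genes took most of the transcript level per length. Ptpn5 made up 95.5% ± 0.42 of the summed RPKM of the 3 tyrosine phosphatases with a kinase interaction motif, ahead of Ptpn7 and Ptprr. Ppp1r1b made up 88.8% ± 1.11 of the 3 Ppp1r1 inhibitors, with Ppp1r1a, which encodes phosphatase inhibitor 1, at 11.2% ± 1.11. Rgs9 held 79.3% ± 1.68 of the 4 RGS proteins of the R7 family, and Rgs7 came next with 14.7% ± 1.19. For the adenylyl cyclases, Adcy5 held 75.0% ± 1.5 of 9 genes, and Adcy1, a calcium-stimulated cyclase, 9.91% ± 1.14.

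Gnal held 74.7% ± 2.80 of the 2 stimulatory alpha subunits and Gnas, the widespread form, 25.3% ± 2.80. Among 10 gamma subunits Gng7 held 72.7% ± 1.96, followed by Gng10 with 7.16% ± 0.49. Arpp21 held 61.2% ± 1.45 of 3 related R3H domain genes, counted over all its forms. Its short form of 88 codons was by far the most covered, as given below. Which forms encode the domain was not tested. Phosphodiesterases were the least concentrated family: of 18 genes, the calmodulin-dependent Pde1b held 45.1% ± 1.01, Pde2a, which is not among the 9 genes, 20.9% ± 0.68, and Pde10a 20.2% ± 0.94 (SD, n = 16 for every share). All shares rest on the same annotated exon lengths, little covered stretches included.

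**Figure D1:**
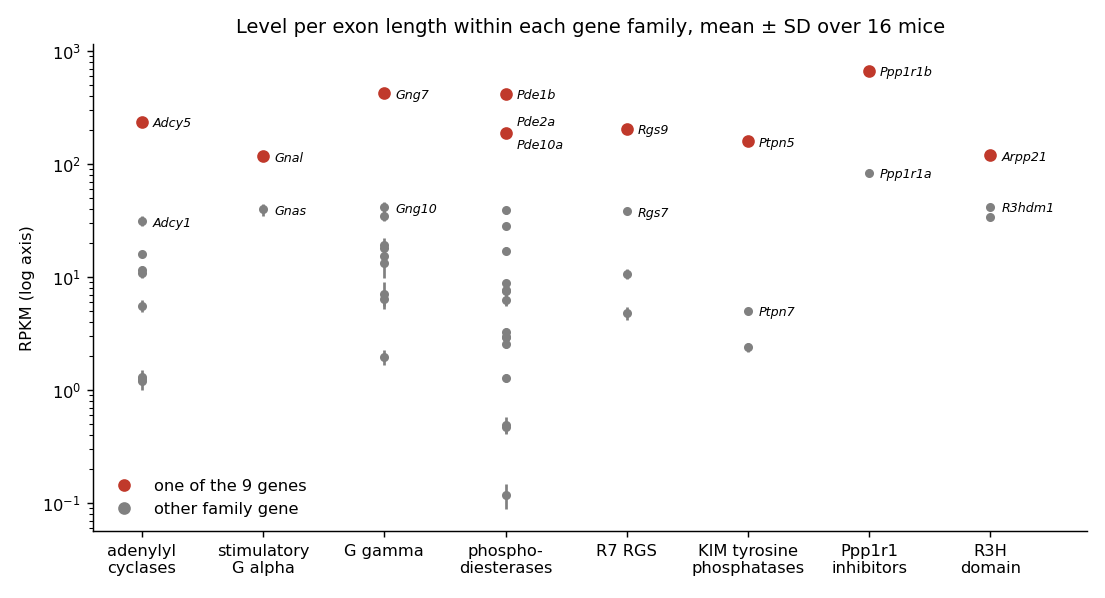
RPKM on a log axis (mean, with the SD over 16 mice as a bar) of each gene of 8 families, with the 9 genes in red and the other family genes in grey. Each red point is the highest of its family except Pde10a (188 RPKM), which sits beside Pde2a (194 RPKM) and under Pde1b (419 RPKM), and Ppp1r1c (0.00164 RPKM) lies below the axis.

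The comparison of congenic with wild-type mice asks whether the congenic segment changes transcript levels in the striatum. No difference between the genotypes was detected for any of the 9 genes. In edgeR's quasi-likelihood test with sex in the model, 0 of 9 passed a Benjamini-Hochberg adjusted p of 0.05 over 16716 genes, 0 of 9 had an unadjusted p under 0.05, and DESeq2 and limma-voom called 0 of 9 as well. The background was the same, with 0 genes called (0%) and 256 genes (1.53%) at an unadjusted p under 0.05. The summed level of the 9 genes came to 14547 ± 761 CPM per congenic mouse and to 14527 ± 794 CPM per wild-type mouse (SD, n = 8 each).

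Ppp1r1b, the DARPP-32 gene, had a lowest, median and highest value of 1697, 1950 and 2208 CPM in congenic mice, against 1703, 2028 and 2264 CPM in wild-type mice. The ranges lay over each other almost entirely, and the log2 fold change was -0.01 with a 95% interval of -0.14 to 0.12. Adcy5 ran over 1494, 1686 and 1745 CPM in congenic mice and 1540, 1667 and 1857 CPM in wild-type mice, a log2 fold change of -0.02 (-0.12 to 0.08). For Gnal the values were 832, 933 and 982 CPM in congenic mice and 866, 931 and 985 CPM in wild-type mice, and the log2 fold change was -0.02 (-0.11 to 0.08). Thus the cyclase and its activating subunit had nearly the same median in both genotypes.

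Gng7 had values of 1489, 1595 and 1930 CPM in congenic mice and 1484, 1570 and 1763 CPM in wild-type mice, with a log2 fold change of 0.03 (-0.07 to 0.13). The congenic maximum came from Sample_4673, a male that stood apart from the other 7 congenic mice, which lay between 1489 and 1688 CPM. Pde10a ran over 2008, 2366 and 2696 CPM in congenic mice and 2226, 2403 and 2546 CPM in wild-type mice, with a log2 fold change of -0.01 (-0.14 to 0.11). Its congenic SD of 231 CPM exceeded the wild-type SD of 106 CPM, and this difference in spread was not tested. Pde1b, the other phosphodiesterase, had 1640, 1806 and 1949 CPM in congenic mice and 1587, 1796 and 2022 CPM in wild-type mice, and its log2 fold change was -0.0015 (-0.11 to 0.11).

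Rgs9 gave 1086, 1345 and 1541 CPM in congenic mice and 1190, 1314 and 1458 CPM in wild-type mice, with a log2 fold change of 0.03 (-0.10 to 0.15). Ptpn5 gave 771, 960 and 1024 CPM in congenic mice and 783, 941 and 1053 CPM in wild-type mice, with a log2 fold change of 0.0039 (-0.10 to 0.11). The largest estimate was that of Arpp21, with 1792, 2032 and 2229 CPM in congenic mice and 1772, 1981 and 2032 CPM in wild-type mice and a log2 fold change of 0.05 (-0.04 to 0.14). With the cortical excitatory neuron marker score as a covariate that estimate was 0.0033. The 9 intervals together ran from -0.14 to 0.15 on the log2 scale, which is the resolution that 8 mice against 8 gave for these genes.

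**Figure D2:**
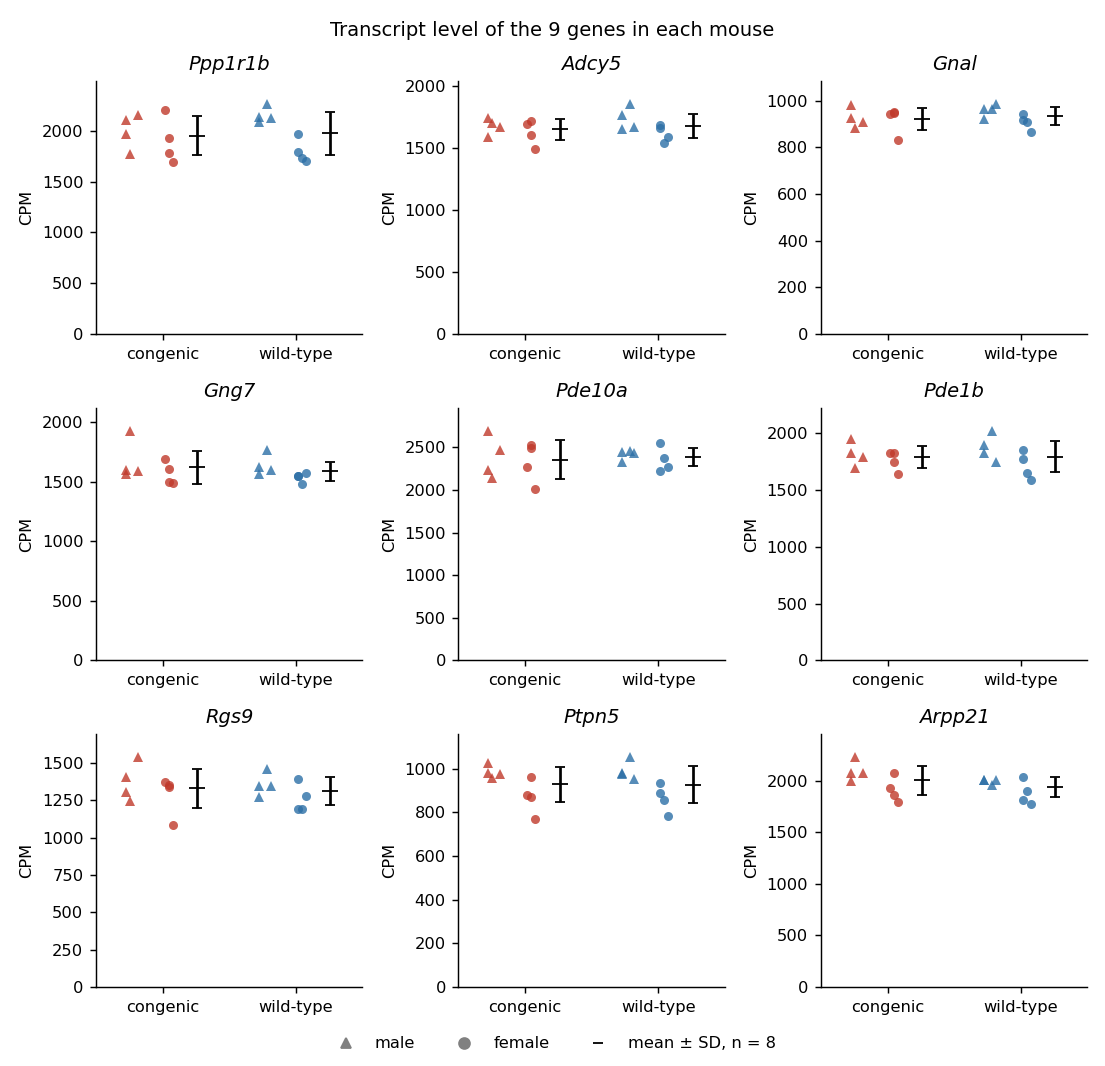
CPM of the 9 genes in each mouse, congenic mice in red and wild-type mice in blue, males as triangles and females as circles, with the mean ± SD of 8 mice as black bars. The genotypes overlap for each gene, and the lowest congenic value is that of the female Sample_4804 for all 9 genes.

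Sex was the other labelled factor. All 9 genes had higher means in males than in females, with a median log2 fold change of 0.12, against a median of -0.0049 over the 16716 genes tested, but none was called by edgeR. The background was 23 genes called (0.138%), and 2464 genes (14.7%) had an unadjusted p under 0.05, as did 6 of the 9. DESeq2 called 1 of the 9, Ptpn5, and limma-voom 0. Sample_4806, labelled female, held 2.73 CPM of Xist, the transcript of the inactive X chromosome, where the other 7 females held 958 to 1535 CPM. Its Y-linked level was low as in the other females, at most 0.0655 CPM of any of 4 Y-linked genes. The cause of its low Xist was not tested. Sex estimates below are therefore given with and without Sample_4806. Without it 15 genes were called, 0 of them among the 9, of which 4 had an unadjusted p under 0.05 (10.9% of 16803 genes). Males also carry lower sample numbers than all females but Sample_4676 and Sample_4677, so sex cannot be told apart from what the numbers stand for.

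Ptpn5 had a lowest, median and highest value of 950, 976 and 1053 CPM in males, against 771, 876 and 961 CPM in females. Of 8 males, 6 lay above every female, and the groups overlapped through the female Sample_4739, whose 961 CPM exceeded the 950 and 958 CPM of the males Sample_4732 and Sample_4673. The log2 fold change was 0.21 ± 0.05 (SE, n = 8 each). The adjusted p was 0.111 by edgeR and 0.00957 by DESeq2. Without Sample_4806 the log2 fold change was 0.18, with an adjusted p of 0.236 in edgeR.

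Ppp1r1b had 1772, 2113 and 2264 CPM in males, against 1697, 1784 and 2208 CPM in females. Here the ranges overlapped widely, with the male Sample_4673 low and the female Sample_4737 high, and the log2 fold change was 0.19 ± 0.06 (SE) with an adjusted p of 0.204 in edgeR. Arpp21 had 1959, 2006 and 2229 CPM in males, against 1772, 1881 and 2073 CPM in females, a log2 fold change of 0.13 ± 0.04 with an adjusted p of 0.195 in edgeR. Of the 8 females, 6 lay below every male for Arpp21. Without Sample_4806 the log2 fold change was 0.16 for Ppp1r1b and 0.11 for Arpp21.

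The other 6 genes had log2 fold changes of 0.12 for Rgs9 and Gng7, 0.11 for Pde1b, 0.10 for Adcy5, 0.07 for Gnal and 0.06 for Pde10a (edgeR adjusted p of 0.281 to 0.633). Without Sample_4806 they were 0.12 for Rgs9, 0.11 for Gng7, 0.08 for Pde1b and Adcy5, and 0.05 for Gnal and Pde10a. When the females Sample_4804 and Sample_4806 were left out, a choice made after seeing the data, Ptpn5 stood at 0.15, Ppp1r1b at 0.14 and Arpp21 at 0.09, and Pde10a at 0.01. Adcy5 was at 0.06, Gnal at 0.02, Pde1b at 0.06, Rgs9 at 0.08 and Gng7 at 0.09 in that fit, so all 9 estimates were smaller without these mice.

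Marker lists are set beside these values. Of 20 other projection neuron markers 19 had a positive log2 fold change in males, with a median of 0.10, and 0 of 20 were called. All 11 cortical excitatory neuron markers had negative values, with a median of -0.67 and 0 called, and their summed level was 220 to 470 CPM in males, against 231 to 522 CPM in females. None of these 11 was at 0 in all mice, and 1 of them stayed below 1 CPM on average. All 7 ependymal markers were negative too (median -0.26), and 9 of 10 microglial markers were positive (median 0.13). Without Sample_4806 the medians were 0.08 for projection neuron, -0.65 for cortical, -0.19 for ependymal and 0.11 for microglial markers, with 0 called. In that fit 0 of 6 thalamic, 2 of 7 septal and pallidal and 7 of 10 interneuron markers were positive. So were 4 of 10 astrocyte, 3 of 10 oligodendrocyte, 5 of 9 endothelial and mural and 5 of 8 choroid plexus markers. With the cortical marker score as a covariate, the log2 fold change was 0.16 for Ptpn5, 0.17 for Ppp1r1b and 0.08 for Arpp21. The part of punch position, of cell make-up and of litter in the sex estimates was not tested.

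**Figure D3:**
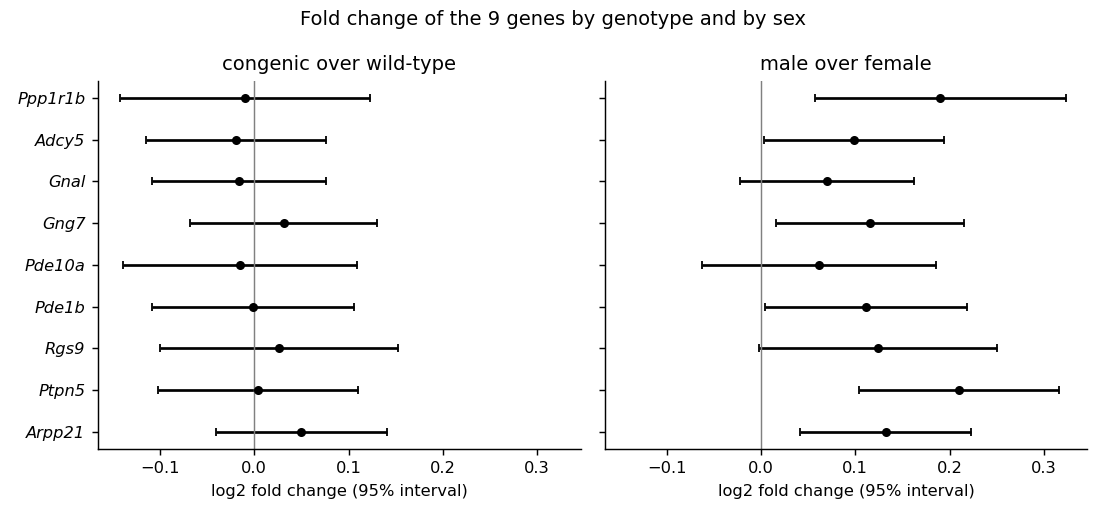
Log2 fold changes of the 9 genes with 95% intervals from edgeR, congenic over wild-type on the left and male over female on the right. Each genotype interval contains 0, and each sex estimate is positive, from 0.06 for Pde10a to 0.21 for Ptpn5, with 0 of 9 past the adjusted threshold in either panel.

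No interaction of genotype with sex was detected. It was called for 0 of 9 genes by edgeR, with 0 of 9 at an unadjusted p under 0.05, against 0 of 16716 genes called (0%) and 698 (4.18%) at an unadjusted p under 0.05. DESeq2 and limma-voom called 0 genes. Ppp1r1b had the largest estimate, at -0.22 with a 95% interval of -0.47 to 0.03, and at -0.18 without Sample_4806, where again 0 genes were called. Its level was 2001 ± 172 CPM in congenic males and 1904 ± 225 CPM in congenic females, against 2153 ± 78.0 CPM in wild-type males and 1801 ± 120 CPM in wild-type females (SD, n = 4 each), so the male excess was wider among wild-type mice, within the error of the test.

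Of 57 other genes of the pathway, 0 were called for genotype, sex or the interaction. By unadjusted p, 0 of 57 were under 0.05 for genotype, against 1.53% of all genes tested, and 12 of 57 (21.1%) for sex, against 14.7% of all genes tested. Without Sample_4806 the share for sex was 7 of 57 (12.3%), against 10.9% of all genes. The median log2 fold change was -0.00055 for genotype and 0.02 for sex. The smallest p for genotype came from Adcy2, at -0.08 ± 0.04 (SE), Pde1a, at -0.24 ± 0.14, and Adcy6, at -0.10 ± 0.07, all at an edgeR adjusted p of 0.999. For sex they came from Gnb5, the obligate partner of Rgs9, at 0.16 ± 0.05 (edgeR adjusted p = 0.176), from Ppp1r9b, the spinophilin gene, at 0.17 ± 0.06 (edgeR adjusted p = 0.192), and from the D1 receptor gene Drd1a at 0.13 ± 0.04 (edgeR adjusted p = 0.193), and without Sample_4806 the log2 fold changes were 0.13, 0.17 and 0.11 in the same order (edgeR adjusted p of 0.318 to 0.367). For the interaction they came from Pde1c, at 0.22 ± 0.11, Ppp2r5d, at -0.18 ± 0.12, and Fyn, at -0.11 ± 0.07, all with an edgeR adjusted p of 0.967. Drd1a averaged 292 CPM and Drd2 222 CPM over the mice, and all 4 receptor genes were positive in males.

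The spread between mice was near or above that of other abundant genes for 7 of the 9 genes, and below it for Gnal and Adcy5. The coefficient of variation was 4.49% for Gnal, 5.41% for Adcy5, 6.18% for Arpp21, 6.41% for Pde1b, 6.99% for Gng7, 7.35% for Pde10a, 8.35% for Rgs9, 8.58% for Ptpn5 and 9.94% for Ppp1r1b, against a median of 6.13% over the 2413 genes with at least 100 CPM. Of the 9 genes 7 lay above that median. The share of the 2413 genes with a lower coefficient was 20.7% for Gnal and 37.5% for Adcy5, and it reached 77.0% for Rgs9, 79.1% for Ptpn5 and 86.1% for Ppp1r1b. The highest mouse exceeded the lowest by 1.18-fold for Gnal and by 1.42-fold for Rgs9, the ends of the range. Sample_4804 was the lowest for 6 genes and Sample_4806 for Pde1b and Arpp21, and the sum of the 9 genes ran from 12808 to 15791 CPM with a median of 14690.

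Most pairs of the 9 genes had positive correlations across mice. Over the 36 pairs of the 9 genes the Pearson r of log2(CPM + 1) ran from -0.17 for Gng7 with Pde10a to 0.82 for Adcy5 with Pde1b, with a median of 0.60, and 35 of 36 were positive. By permutation over 16 mice 21 of 36 pairs passed a Benjamini-Hochberg adjusted p of 0.05 by Pearson r and 10 by Spearman rho. Without the 2 mice farthest from the median of the pair's first gene, r ran from -0.27 to 0.70 and 32 of 36 were positive, and Gnal with Ptpn5, at 0.67 over all mice, was at 0.22. Within sexes the median r was 0.26 over 8 males, with a range of -0.82 to 0.76, and 0.63 over 8 females, with a range of 0.08 to 0.89. The pairs share library totals, so these values describe the libraries as well as the genes.

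Set against 20 other markers of striatal projection neurons, 7 of the 9 genes followed the marker score by Pearson r and 5 by Spearman rho after adjustment over 18 relations. Pde1b was closest, with r = 0.94 (permutation p = 1e-05, adjusted p = 9e-05, n = 16) and rho = 0.85 (permutation p = 8e-05, adjusted p = 0.00072), and r was 0.94 again without the 2 mice farthest from the median score. Adcy5 followed with r = 0.91 (permutation p = 1e-05, adjusted p = 9e-05, n = 16) and rho = 0.88 (permutation p = 3e-05, adjusted p = 0.00054), and with r = 0.84 without those mice. A p of 1e-05 is the smallest that 100000 resamples can give. Gnal had r = 0.80, Ptpn5 0.78, Ppp1r1b 0.76, Rgs9 0.68 and Pde10a 0.59, and without the 2 mice, Sample_4804 and Sample_4753, these were 0.75, 0.66, 0.66, 0.42 and 0.49. Within males r was 0.92 for Pde1b, 0.82 for Adcy5, 0.74 for Pde10a and 0.68 for Gnal. It was 0.49 for Ptpn5, 0.38 for Rgs9 and 0.36 for Ppp1r1b. In females the 7 values were 0.94, 0.93, 0.51, 0.85, 0.72, 0.73 and 0.82 in the same order. The permutations did not hold sex or genotype fixed, and the part of the sex difference in these r was not tested. Gng7 and Arpp21, each at r = 0.40, did not pass by either measure. For Gng7 r was 0.14 within congenic and 0.82 within wild-type mice, and -0.09 in males and 0.54 in females. For Arpp21 it was 0.30 within congenic and 0.56 within wild-type mice, and -0.68 in males and 0.46 in females.

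Gng7 and Arpp21 instead passed by both measures against the cortical excitatory neuron score, running opposite to it. Arpp21 had r = -0.81 (permutation p = 0.00015, adjusted p = 0.00076, n = 16) and rho = -0.82 (permutation p = 0.00017, adjusted p = 0.00102), and -0.72 without the 2 farthest mice, Sample_4673 and Sample_4739. Its r was -0.69 in males and -0.84 in females. Gng7 had r = -0.69 (permutation p = 0.00118, adjusted p = 0.00303, n = 16) and rho = -0.74 (permutation p = 0.00174, adjusted p = 0.00522), -0.60 without those mice, -0.58 in males and -0.70 in females. Ptpn5 passed by Pearson r only (r = -0.60, permutation p = 0.0132, adjusted p = 0.0263, n = 16), and its r was 0.18 in males and -0.78 in females, so that relation was not seen among males. Within congenic mice r with the cortical score was -0.93 for Arpp21 and -0.77 for Gng7, and within wild-type mice -0.57 and -0.54. Ppp1r1b, Rgs9 and Gnal did not pass over all mice, with r of -0.30, -0.39 and -0.33. Without Sample_4673 and Sample_4739 these were -0.73, -0.58 and -0.57, and within males 0.32, 0.28 and 0.35. Adcy5, Pde1b and Pde10a did not pass either, and without the same mice had r of -0.45, -0.46 and -0.32. Within wild-type mice Gnal was at -0.87, and within congenic mice at -0.15. The cortical markers had negative estimates for congenic over wild-type mice (0 of 11 positive, median log2 fold change -0.42, 0 called). Whether this bears on the Arpp21 and Gng7 genotype values above was not tested.

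The genes most like the mean of the 9 across the 16 mice, among 11701 other genes with at least 5 CPM, were Bcr (r = 0.91), Doc2b (0.91), the D2 receptor gene Drd2 (0.89), Gnb5 (0.88) and Actn1 (0.88). These are Pearson r of log2(CPM + 1) over 16 mice, given as a description.

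**Figure D4:**
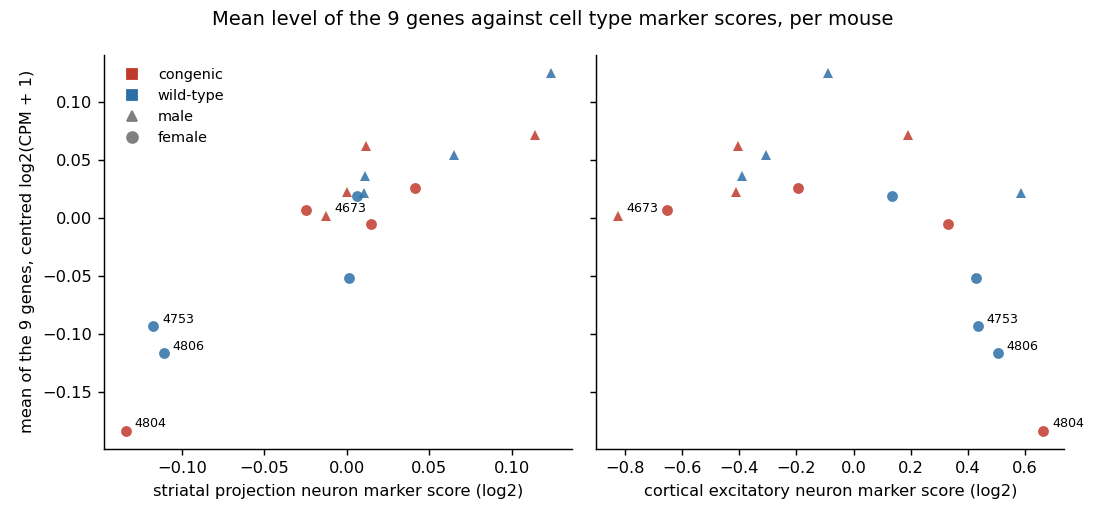
Mean centred log2(CPM + 1) of the 9 genes in each mouse (vertical axis) against the score of striatal projection neuron markers (left) and of cortical excitatory neuron markers (right), with congenic mice in red, wild-type mice in blue, males as triangles and females as circles. The females Sample_4804, Sample_4806 and Sample_4753 lie lowest on the vertical axis and at the low end of the projection neuron score.

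The exon table shows which forms of these genes the striatum made. Exon bins, stretches of exon shared by the same set of transcripts, numbered 293 for the 9 genes, of which 266 passed the filter. Pairs of alternative starts or ends were chosen from the annotation after the counts were seen, and are described here as counts per base with the SD over 16 mice. Counts per base can run high in very short bins, as in an Arpp21 bin of 2 bp with 5800 counts on average. Stretches of unlike length are therefore compared only roughly.

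Arpp21 was made almost wholly in its short form. The last exon of the short transcript, chr9:112083524-112085324 (minus strand, NCBIM37, 3′ UTR and coding sequence), held 67.7 ± 4.13 counts per base, against 3.62 ± 0.29 over 16 coding bins found only in the long forms further downstream. The short transcript has a coding sequence of 88 codons, and the longest of the long ones 809. The long-form share of the summed counts per base was 4.89% ± 0.55 in congenic mice and 5.29% ± 0.25 in wild-type mice (SD, n = 8 each). It was higher in mice with a higher cortical excitatory neuron score, with r = 0.84 (permutation p = 3e-05, n = 16) and rho = 0.77 (permutation p = 0.00078). The r was 0.74 without mice Sample_4673 and Sample_4739, 0.84 in males, 0.97 in females, 0.94 in congenic and 0.53 in wild-type mice, a relation looked for after the data were seen. Total Arpp21 ran the other way against the same score.

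An intron of the long forms also holds the hairpin of a microRNA of neurons, Mir128-2, at chr9:112021140-112021215 on the minus strand, between bins 10 and 11. The hairpin was matched from RefSeq (GRCm38.p6), and bin 11, the next exon bin beside it, held 344 to 505 counts per mouse. The gene table held at most 1 count of the hairpin itself in a mouse, and the mature microRNA was not measured by these libraries. Its seed, bases 2 to 8, is in capitals.
mmu-miR-128-3p: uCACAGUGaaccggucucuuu

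Rgs9 was used mainly with the 3′ end of its longer coding form. As background, the short product RGS9-1 is the retinal form and the long product RGS9-2 the striatal form. The last exons of the long form (chr11:109086675-109088918, minus strand, coding and 3′ UTR, 675 codons) held 28.8 ± 2.15 counts per base, and the end of the short form (chr11:109096371-109097213, 484 codons) 6.96 ± 0.83. The share of the short end was 19.6% ± 2.32 in congenic mice and 19.4% ± 1.15 in wild-type mice (SD, n = 8 each). Reads of unspliced RNA would fall on the short end too, and their part was not tested.

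First exons were used unevenly in 5 genes. Ppp1r1b had 83.4 ± 11.03 counts per base over its upstream first exon (chr11:98209718-98210488) and 0.69 ± 0.07 over a downstream one. Pde10a had 12.2 ± 1.54 over the first exon at chr17:8994558-8995010, whose promoter is printed above, and 0.0751 ± 0.0160 over the first exons further upstream. Pde1b had 41.01 ± 4.85 over its upstream first exon and 0.88 ± 0.25 over the downstream one. Gng7 had 25.7 ± 2.30 over its upstream first exon and 0.34 ± 0.10 over the downstream one, the pair whose promoters are shown with and without a GC box. For Gnal the order was turned, with 29.7 ± 2.76 over the downstream first exon and 0.50 ± 0.09 over the upstream one, which starts a longer coding sequence of 448 codons against 381.

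**Figure D5:**
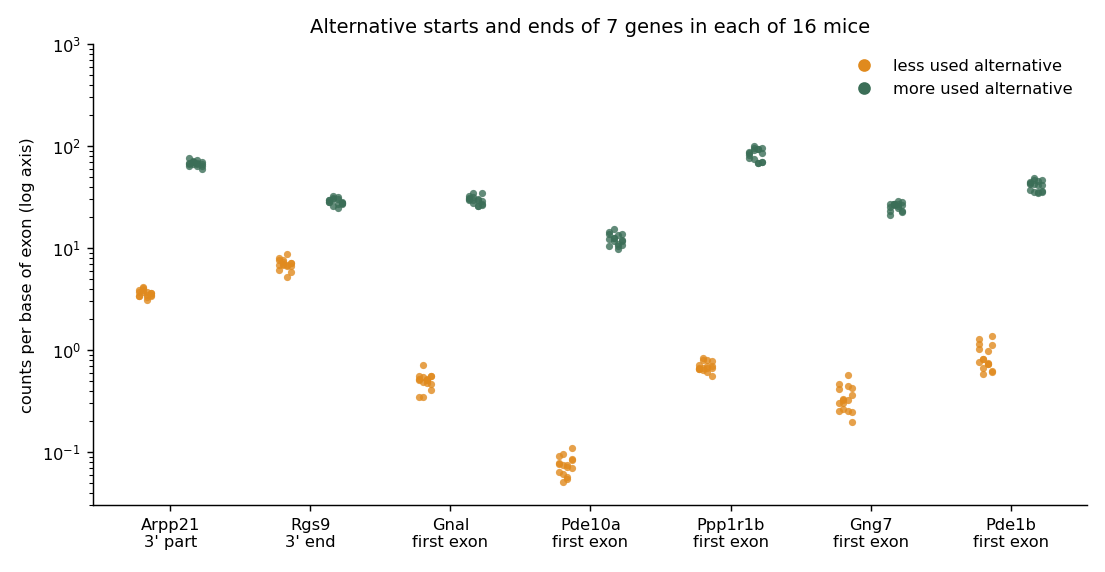
Counts per base of exon on a log axis in each of 16 mice, for the less used (orange) and the more used (green) of 2 alternative starts or ends in 7 genes. The alternatives do not overlap in any gene, and the gap is smallest for the Rgs9 3′ end (28.8 against 6.96 counts per base) and widest for the Pde10a first exon (12.2 against 0.0751).

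No difference in exon usage by genotype was detected in the 9 genes. By edgeR's diffSpliceDGE, 0 of 9 genes were called, against 1 of 14875 genes (0.00672%), and 0 of 266 bins, against 1 of 235478 bins (0.000425%). Single bins at an unadjusted p under 0.05 numbered 6 of 266 (2.26%), against 1.03% of all bins, and all 6 were in Arpp21. The smallest p was that of its bin 29, a long-form bin, with a log2 fold change of -0.18 relative to the rest of the gene in congenic mice (p = 0.00124, edgeR adjusted p = 1). limma's diffSplice called 0 of 266 bins, with 7 at an unadjusted p under 0.05.

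For sex, 0 of 9 genes were called for exon usage, against 19 of 14875 (0.128%), and 1 of 266 bins, against 37 of 235478 bins (0.0157%). That bin was Arpp21 bin 19 (chr9:112056967-112057921, noncoding or UTR), with a log2 fold change of -0.54 in males relative to the rest of the gene (edgeR adjusted p = 0.0207) and only 21 to 70 counts per mouse, and Arpp21 as a gene had an edgeR adjusted p of 0.0846. Without Sample_4806 that call was lost, with a log2 fold change of -0.54 for the bin (edgeR adjusted p = 0.0604), 0 of 267 bins and 0 of 9 genes called, and 7 of 14995 genes called in all. In all, 31 of 266 bins (11.7%) had an unadjusted p under 0.05, against 3.25% of all bins, and 18 of them were in Arpp21. Without Sample_4806 it was 27 of 267 bins (10.1%), against 2.89% of all bins. The long-form share of Arpp21 was 5.05% ± 0.51 in males and 5.14% ± 0.43 in females (SD, n = 8 each). The cause of these bin differences was not tested.

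Counting limits touched Ppp1r1b. Its bins 5 to 9 (chr11:98212169-98213017), 2 of them coding, held 0 counts in every mouse, while the coding bins 4 and 12, upstream and downstream of them, held 120 and 255 counts per base. All 5 lie under an exon of 1700003D09Rik on the opposite strand, and bin 11, which it covers in part, held 21.7 counts per base. In Arpp21 2 further bins were at 0, and 1 of these lies wholly under the opposite-strand gene 2900079G21Rik. The last Gnal bin, which overlaps the opposite-strand gene Mppe1, held 12.8 counts per base. Whether reads from these exons were set aside as overlapping was not tested. Over exon bins Ppp1r1b averaged 1740 CPM over congenic mice and 1770 CPM over wild-type mice.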

How the data were processed

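The authors deposited whole-number counts per gene and per exon bin for 48 runs, 3 lanes for each of 16 mice, as the values in both tables show. Per the submitters' processing notes, the tools were HTSeq 0.6.1p1, limma 3.22.7, edgeR 3.8.6 and FastQC 0.10.1, and mm9 and mm10 are named as builds. Aligner and strandedness are not given in the sources used here. Labels conflict on the reads, single-end in one text and paired-end in another. Bins were rebuilt from GENCODE on NCBIM37, with genes that overlap on a strand taken as a group. Their number matched the deposited one for 16977 of 17389 groups with at least 5 bins, so coordinates are on that build.

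Lanes were summed per mouse. Genes passed edgeR's filter (minimum count 10, minimum total 15), were scaled by TMM and tested with edgeR 4.0.16 (glmQLFit and glmQLFTest, robust, two-sided, sex or genotype as the other term) in R 4.3.3. Exon usage was tested with diffSpliceDGE and Simes p per gene. P-values were Benjamini-Hochberg adjusted over all features, with a call at 0.05. Alternatives used limma 3.58.1, DESeq2 1.42.0, other filters and scalings, single lanes, a cortical score covariate and each mouse left out. The test across genes and that across bins were first tested on simulated data. CPM divide a gene's count by the mouse's total, RPKM also by annotated exon length, and marker scores are mean centred log2(CPM + 1). Permutation tests drew 100000 resamples and were two-sided.

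The 9 genes, the pathway and marker lists and the tests were chosen with earlier results of these data known. All 9 genes are named, and of the pathway genes the 3 of smallest p per comparison where none was called. In each family up to 3 genes are named by level per length, and the 5 genes most like the mean of the 9. Counts have no molecular identifiers, and since litters are not named, p-values measure the spread between these mice.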

Additional observations from a re-analysis of the deposited data

Results flagged for a closer look

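In 32 sets of 8 mice (the level of each gene and the share of each alternative start or end, by genotype), 2 values stood farther from the rest of their group than Dixon's test allows at 95%, and chance alone flags about 1 in 20 such sets. Congenic mouse Sample_4673, a male, had 1930 CPM of Gng7, against 1489 to 1688 CPM in the other 7 congenic mice. The same mouse had the highest Arpp21 level of all 16 mice (2229 CPM) and the lowest cortical excitatory neuron score. Congenic mouse Sample_4739, a female, drew 3.39% of the counts per base of the 2 Pde1b first exons from the downstream one, against 1.73% to 2.49% in the other congenic mice. Wild-type mice ran from 1.32% to 3.73%, so the value lay within their range. The downstream exon held only 30 to 70 counts per mouse.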

How the results depend on the processing

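For genotype and for the interaction, 0 genes and 0 of the 9 were called in the main fit and in each alternative run, each mouse left out included. The sign of some genotype log2 fold changes near 0 turned. A cortical score covariate gave -0.0195 for Gng7, -0.00072 for Rgs9 and -0.0366 for Ptpn5, and 0.0033 for Arpp21 in place of 0.05. In lane 5 alone Ptpn5 was -0.0036, in lane 3 alone Pde1b was 0.00597 and with no filter 0.0010, and without mice Sample_4804 and Sample_4806 (added after seeing the data) Pde10a was 0.00772. With each mouse left out in turn, the values were -0.0565 to 0.0265 for Ppp1r1b, -0.0353 to 0.00387 for Adcy5, -0.0302 to 0.00947 for Gnal, -0.0467 to 0.0218 for Pde10a, -0.0223 to 0.0212 for Pde1b and -0.0232 to 0.0354 for Ptpn5. The sign of the sex log2 fold change held for all 9 genes in each setting run. The count of genes called for sex, 23, was 259 with DESeq2, and 13 in lane 4 alone, with the cortical score or without mice Sample_4804 and Sample_4806. It was 12 to 76 with 1 mouse left out: 76 without Sample_4712, 66 without Sample_4673, 41 without Sample_4671, 40 without Sample_4737, and 12 to 15 without Sample_4672, Sample_4731, Sample_4733, Sample_4734, Sample_4738, Sample_4753, Sample_4804 or Sample_4806. Of the 9 genes, DESeq2 called 1 for sex, Ptpn5 at 0.21 (DESeq2 adjusted p = 0.00957), where its edgeR and limma adjusted p over the other settings were 0.0573 to 0.446. The count of genes called for exon usage by sex, 19, was 7 without Sample_4806 (added after seeing the data). For exon usage by genotype, 0 genes were called with limma's diffSplice or with a minimum of 10 counts in 8 mice. Summed over exon bins instead of read from the gene table, mean CPM was 1755 for Ppp1r1b, 755 for Gnal, 1183 for Gng7, 2018 for Pde10a, 1038 for Rgs9 and 2261 for Arpp21, and TMM scaling kept each mean within 1 SD. The cause of these shifts was not tested.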
